A study of Homo sapiens with 6 samples.

Results

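The genes described here are 55 genes that license, start and carry DNA replication, chosen by symbol for their known function from a table of 46427 genes. RNA was sequenced from HCT116 cells, a human colorectal carcinoma line, to ask which genes differ in level when *ZKSCAN3*, a zinc finger transcription factor gene, is disrupted. The groups were the parental line with the unedited gene (*ZK3*-WT, 3 libraries) and a homozygous *ZKSCAN3* mutant line (*ZK3*-KO, 3 libraries), both grown in the same medium with serum. CRISPR/Cas9 was directed at the first exon to remove the start codon, and mutant cells went through puromycin and single-cell selection, which the methods do not describe for the parental cells. The sources do not say how many clones the *ZK3*-KO libraries represent, so an effect of the gene and an effect of 1 selected clone cannot be told apart.

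In late mitosis and G1 phase, the origin recognition complex, CDC6 and CDT1 load the MCM2-7 helicase onto DNA, a step called licensing. In S phase, kinases with CDC45 and GINS switch the helicase on, and polymerases, the PCNA clamp, RPA and Okazaki fragment enzymes copy the strands. Transcription of many of these genes is known to be periodic in the cell cycle and to depend on E2F factors, which bind short GC-rich sites near start sites. Proliferating carcinoma lines such as HCT116 express the whole set.

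Promoters are shown here because many of these genes have a known cell cycle control. The genes were chosen by function and not by promoter letters, but E2F letters were to be expected from that known control. RefSeq windows of 300 bases on GRCh38.p14, from 250 bases before to 50 bases from the start site onward, were matched by symbol for 48 of the 55 genes. Both strands were searched for the E2F letters TTTCCCGC, TTTCGCGC, TTTGGCGC and TTTGCCGC, and matches are in capitals below, where overlapping matches merge into 1 run. *MCM6*, *MCM3*, *CDC6*, *PCNA* and *POLE2* are shown for their matches, and *MCM10*, *ORC2* and *POLD2* as windows without one.
MCM6, chr2:135876394-135876693, reverse strand: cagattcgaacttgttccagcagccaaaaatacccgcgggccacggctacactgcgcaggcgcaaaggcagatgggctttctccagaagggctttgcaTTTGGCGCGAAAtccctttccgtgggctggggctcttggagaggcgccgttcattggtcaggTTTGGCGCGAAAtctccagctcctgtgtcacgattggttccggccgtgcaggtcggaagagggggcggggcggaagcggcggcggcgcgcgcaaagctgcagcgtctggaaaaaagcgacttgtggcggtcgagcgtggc
MCM3, chr6:52284693-52284992, reverse strand: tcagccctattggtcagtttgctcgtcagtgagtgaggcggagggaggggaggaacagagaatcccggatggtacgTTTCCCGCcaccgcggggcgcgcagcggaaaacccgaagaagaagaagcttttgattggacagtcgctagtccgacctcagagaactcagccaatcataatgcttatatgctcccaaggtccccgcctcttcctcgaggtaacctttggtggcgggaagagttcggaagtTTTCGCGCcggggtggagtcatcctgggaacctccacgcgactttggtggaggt
CDC6, chr17:40287629-40287928, forward strand: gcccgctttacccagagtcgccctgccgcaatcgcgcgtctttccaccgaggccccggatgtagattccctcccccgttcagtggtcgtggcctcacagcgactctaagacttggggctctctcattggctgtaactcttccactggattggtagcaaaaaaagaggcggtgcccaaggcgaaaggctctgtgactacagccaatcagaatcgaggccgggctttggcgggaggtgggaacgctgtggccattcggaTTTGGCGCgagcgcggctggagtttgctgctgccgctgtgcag
PCNA, chr20:5126573-5126872, reverse strand: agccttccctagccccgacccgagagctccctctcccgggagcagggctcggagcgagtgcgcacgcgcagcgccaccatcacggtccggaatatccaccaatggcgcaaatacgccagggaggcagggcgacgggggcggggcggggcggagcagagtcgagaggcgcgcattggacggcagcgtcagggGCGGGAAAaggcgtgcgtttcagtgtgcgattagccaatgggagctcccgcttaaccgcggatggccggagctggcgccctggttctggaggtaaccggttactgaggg
POLE2, chr14:49688165-49688464, reverse strand: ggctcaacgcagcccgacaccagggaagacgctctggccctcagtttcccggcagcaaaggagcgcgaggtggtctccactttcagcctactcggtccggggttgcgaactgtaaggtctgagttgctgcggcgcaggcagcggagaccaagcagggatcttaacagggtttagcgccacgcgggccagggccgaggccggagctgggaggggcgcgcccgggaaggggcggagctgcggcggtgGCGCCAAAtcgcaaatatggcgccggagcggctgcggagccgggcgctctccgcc
MCM10, chr10:13161308-13161607, forward strand: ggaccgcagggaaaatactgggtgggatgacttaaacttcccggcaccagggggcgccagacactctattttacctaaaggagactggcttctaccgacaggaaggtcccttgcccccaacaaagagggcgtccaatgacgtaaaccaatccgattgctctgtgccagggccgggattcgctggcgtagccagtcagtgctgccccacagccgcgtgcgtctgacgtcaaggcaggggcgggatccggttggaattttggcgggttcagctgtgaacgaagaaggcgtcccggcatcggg
ORC2, chr2:200963611-200963910, reverse strand: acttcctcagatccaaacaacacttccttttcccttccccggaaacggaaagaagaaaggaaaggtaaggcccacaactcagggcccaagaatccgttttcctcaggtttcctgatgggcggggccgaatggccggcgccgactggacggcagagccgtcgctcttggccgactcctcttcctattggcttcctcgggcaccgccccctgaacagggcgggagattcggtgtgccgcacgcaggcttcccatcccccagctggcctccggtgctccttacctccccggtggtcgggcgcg
POLD2, chr7:44123499-44123798, reverse strand: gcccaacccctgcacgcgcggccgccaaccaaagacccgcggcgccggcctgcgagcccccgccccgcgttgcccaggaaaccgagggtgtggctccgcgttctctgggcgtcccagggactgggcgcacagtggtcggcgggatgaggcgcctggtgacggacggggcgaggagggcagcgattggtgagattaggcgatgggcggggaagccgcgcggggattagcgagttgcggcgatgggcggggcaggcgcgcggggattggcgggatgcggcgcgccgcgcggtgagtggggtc

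The E2F letters were found in 20 of the 48 windows (41.7%), against 5.17% of 12525 windows of tested genes and 3.33% of all 27305 windows. *MCM6* held 4 matches, as overlapping pairs that begin 152 and 148 bases and 90 and 86 bases before the start site. *MCM2*, *MCM3* and *MCM7* held 2 matches each, so 8.33% of the windows held at least 2, against 0.271% of the windows of tested genes. The match of *CDC6* began 7 bases after the start site, that of *POLE2* 5 bases before it and that of *PCNA* 59 bases before it. The pentamer CCAAT, the core of the NF-Y site (both strands), was found in 58.3% of the 48 windows and in 36.4% of those of tested genes. The CHR letters TTTGAA or TTTAAA (both strands), found at many G2/M promoters, were in 8.33% of the 48 windows and in 16.4% of those of tested genes. These are exact letter matches and not measured binding. A window without a match can hold close variants, such as TTTGGCGG in that of *MCM10*, which were not searched. Members without a window here are *RPA2*, *RPA3*, *GINS4*, *POLD3*, *MCM4*, *MCM5* and *DNA2*.

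Between 60827060 and 69739215 reads were counted per library, and each of the 55 genes had between 407 and 38803 reads in every library. All 55 passed the filter on low counts, which left 18366 genes. *ZKSCAN3* mRNA itself was at 28.1, 23.4 and 19.8 CPM (counts scaled to a common library size with TMM factors) in the parental libraries, and at 25.4, 24.9 and 13.6 CPM in the mutant ones. Values are given in the order of replicates 1, 2 and 3 throughout. The groups overlapped (log2 fold change -0.16 with a standard error, SE, of 0.27 and an FDR of 0.797 in the quasi-likelihood test of edgeR), and a count per gene cannot show a lost start codon, so the label was not checked by it. *ZK3*-KO replicate 3 stood apart from the other libraries. Its log2 CPM had correlations of 0.963 and 0.95 across genes with the other *ZK3*-KO libraries, which had 0.985 with each other, and limma's quality weights gave it 0.180 where the other libraries had 0.693 to 3.54. Reads of mitochondrial genes made up 12.4% of its total, against 9.41% to 11.7% in the others, and no label marks it as failed. Results are therefore given with and without it. Epithelial markers were present, with a summed level of 3770 to 4830 TPM (the deposited level per transcript length) in *ZK3*-WT and 3460 to 5610 TPM in *ZK3*-KO libraries, and 1 of the 7, *CDX1*, was at 0 in every library. The summed level of 7 leukocyte markers was 4.38 to 13.4 TPM in *ZK3*-WT and 2.5 to 8.63 TPM in *ZK3*-KO libraries (*PTPRC* and *CD3E* at 0), that of 7 fibroblast markers 17.5 to 21.7 and 12.1 to 29.3 TPM, and that of 4 endothelial markers 0.414 to 0.638 and 0.257 to 0.765 TPM.

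With all 6 libraries, 53 of the 55 replication genes had a higher mean in *ZK3*-KO cells and 2, *ORC2* and *ORC4*, a lower one. Their median log2 fold change was 0.50, against 0.02 over all 18366 genes tested. None passed the FDR threshold of 0.05 with edgeR, where 0.817% of all genes were called higher. At an unadjusted p-value under 0.05, 6 were higher (10.9%), close to the 8.89% of all genes. These were *GMNN*, *GINS3*, *PCNA*, *POLD2*, *POLE2* and *FEN1*, named after their values were seen. The groups did not overlap for 2 genes, *GINS3* and *POLD2* (3.64%), a smaller share than the 12.7% of all genes that lay above *ZK3*-WT in every *ZK3*-KO library. DESeq2 called 2, *POLD2* and *POLE2*, at an adjusted p under 0.05, where it called 3.87% of all genes higher. RNA was taken from whole cultures, so more cells in S phase and more of each mRNA per cell cannot be told apart. The replicates are called biological without saying what separated them, and the p-values measure the spread between these libraries.

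The *ZK3*-KO libraries differed more from one another in these genes than their mean differed from that of *ZK3*-WT. Relative to the mean of *ZK3*-WT, the median over the 55 genes was 0.28, -0.15 and -0.10 in the parental libraries and 0.68, 1.01 and -0.61 in the mutant libraries, on the log2 scale. The medians of all genes tested lay between -0.03 and 0.01. *ZK3*-KO replicate 2 was the highest of the 6 libraries for 52 genes (94.5%, against 22.1% of all genes), and replicate 3 was the lowest for 45 (81.8%, against 27.5%). Replicates 1 and 2 were both above every *ZK3*-WT library for 50 genes (90.9%, against 24.5%). Replicate 3 was below every *ZK3*-WT library for 46 genes (83.6%, against 37.9%). For 44 genes, or 80.0%, mutant replicate 2 was the highest and mutant replicate 3 the lowest library at once, which was so for 9.50% of all genes. The range over the 3 libraries had a median of 0.47 in *ZK3*-WT and 1.71 in *ZK3*-KO on the log2 scale, against 0.39 and 0.66 over all genes. *ZK3*-KO replicate 2 exceeded replicate 3 in all 55 genes, and by more than 1 on the log2 scale in 49 (89.1%, against 11.3% of all genes). Among the parental libraries replicate 1 was the highest for 46 genes, or 83.6%, against 39.3% of all genes.

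**Figure D1:**
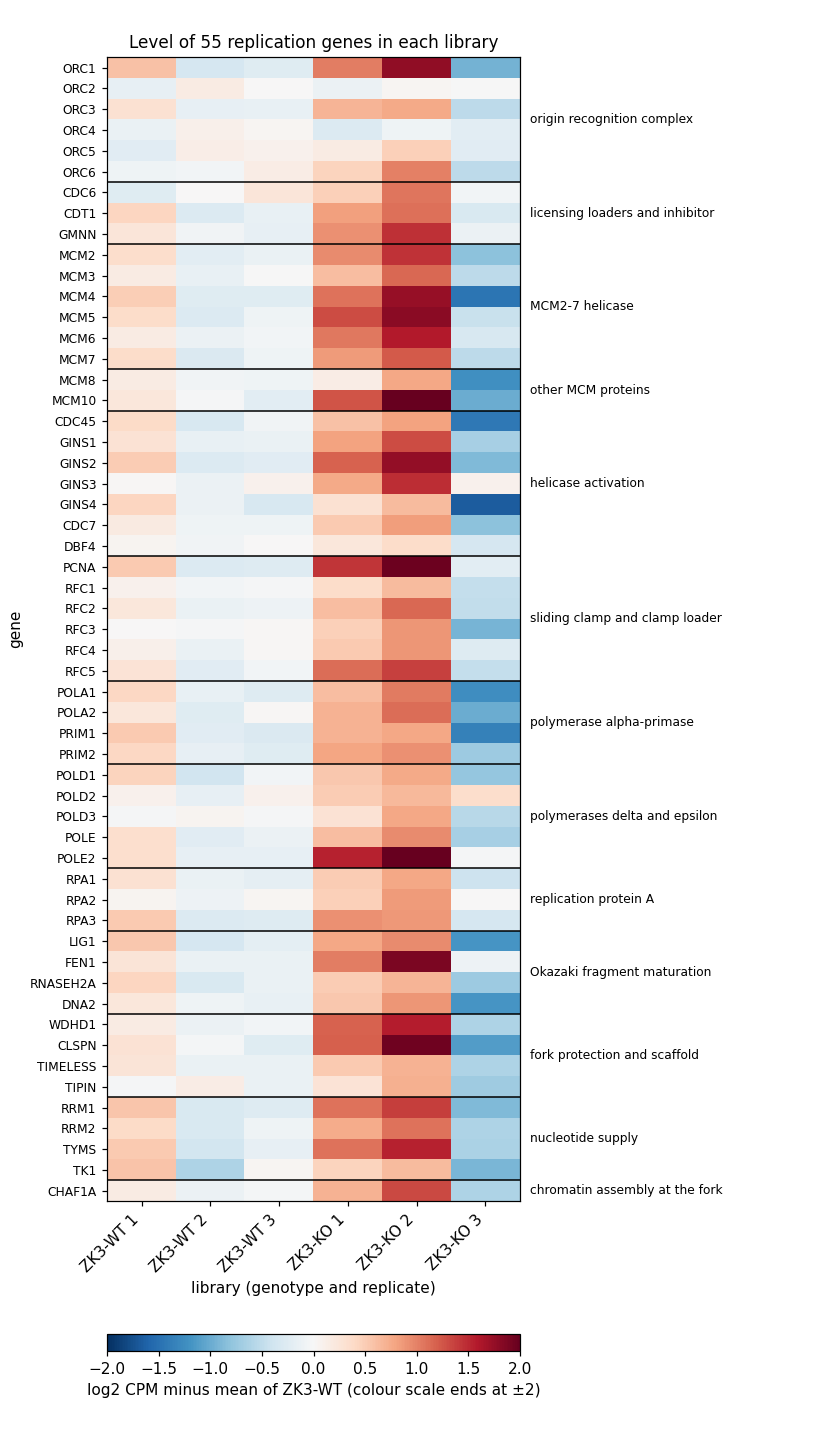
Heat map of the 55 replication genes (rows, grouped by role) in the 6 libraries (columns), as log2 CPM minus the mean of the 3 *ZK3*-WT libraries, with red above and blue below that mean and colours ending at a value of 2 either way. Columns *ZK3*-KO 1 and 2 are red for most genes and column *ZK3*-KO 3 is mostly blue, with medians of 0.68, 1.01 and -0.61, while *ORC2* and *ORC4* stay pale in every column.

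The number of genes called depended on these libraries. The median log2 fold change became 0.82 without *ZK3*-KO replicate 3, with 42 of the 55 past the FDR threshold upward and 0 downward in edgeR, where 7.41% of 18872 genes were called higher. With all libraries kept and weighted by quality, 36 passed upward in limma's fit and 0 downward (median 0.72), where 13.1% of all genes were called higher. These weights are estimated from the spread of the same counts and are lowest for replicate 3. The weighted fit is therefore not independent of leaving that library out. Leaving out replicate 2 instead gave a median of 0.18, with 38 genes higher, 17 lower and 0 called, so none passed in any role. Replicate 3 was left out because its values stood apart, and no label marks it as failed. Where genes are said below to pass or not to pass without it, the share of 7.41% of all genes applies. Replicates share numbers across genotypes. Within number 1 the median difference was 0.40 with 51 genes higher in *ZK3*-KO, within number 2 it was 1.19 with 53 higher, and within number 3 it was -0.52 with 6 higher.

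**Figure D2:**
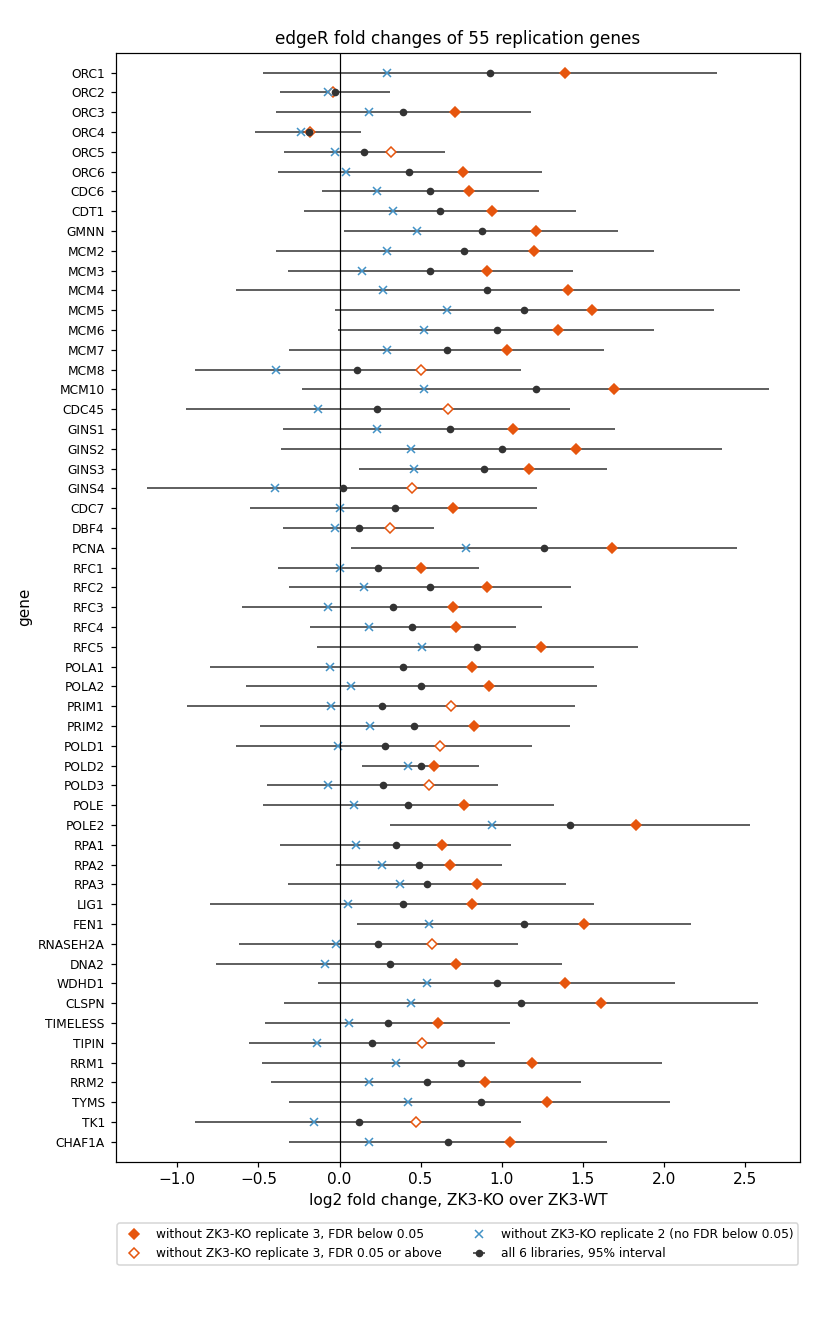
Log2 fold change of *ZK3*-KO over *ZK3*-WT (horizontal axis) for each of the 55 genes (vertical axis) from edgeR, with all 6 libraries and the 95% interval (black), without *ZK3*-KO replicate 3 (orange diamonds, filled where the FDR was under 0.05) and without replicate 2 (blue crosses). The orange diamonds lie to the right of the black points for every gene but *ORC2*, 42 are filled, and the crosses fall to the left of 0 for 17 genes.

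The origin recognition complex marks origins on DNA and is the platform for licensing. Its 6 genes had log2 fold changes with a median of 0.27 (0.52 without *ZK3*-KO replicate 3 and 0.00 without replicate 2), and it held the steadiest members of the set. *ORC1*, the subunit whose amount is known to be regulated in the cell cycle, was at 27.8, 14.6 and 15.5 CPM in *ZK3*-WT and 37.5, 62.9 and 9.56 CPM in *ZK3*-KO libraries. The mutant libraries lay on both sides of the parental ones, 2 above and 1 below (log2 fold change 0.93, SE 0.60, FDR 0.459). *ORC4*, a subunit of the AAA+ ring, was at 38.9, 46.1 and 44.2 CPM and then 35.6, 40.2 and 37.2 CPM, with a log2 fold change of -0.19 (95% interval -0.52 to 0.13). *ORC2*, also a core subunit, was at 51.7, 65.3 and 57.8 CPM against 53.5, 59.8 and 57.7 CPM. Here the 3 mutant libraries were closer to each other than the parental ones, and *ZK3*-KO replicate 2 was 1.04 times replicate 3, where *ORC1* had a ratio of 6.57. *ORC5* was at 24.8, 31.8 and 30.8 CPM and at 32.4, 40.2 and 24.6 CPM, with a log2 fold change of 0.15. *ORC3* and *ORC6* had log2 fold changes of 0.39 and 0.43. Without *ZK3*-KO replicate 3, *ORC1*, *ORC3* and *ORC6* passed (log2 fold changes of 1.39, 0.71 and 0.76 with FDR values of 0.0184, 0.0261 and 0.0292 from edgeR), and *ORC2*, *ORC4* and *ORC5* did not.

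CDC6 and CDT1 bring the helicase to the origin, and geminin, encoded by *GMNN*, inhibits CDT1 after S phase has begun. Both the loaders and the inhibitor had positive values, with a median of 0.62 (0.94 without *ZK3*-KO replicate 3 and 0.33 without replicate 2). *GMNN* was at 25.7, 20.8 and 19.4 CPM in *ZK3*-WT and 41.0, 59.9 and 20.1 CPM in *ZK3*-KO. Replicate 3 of the mutant lay inside the parental range and the other two lay above it (log2 fold change 0.88, SE 0.36, FDR 0.259). *CDC6* was at 68.7, 81.0 and 96 CPM against 113, 171 and 78.4 CPM, with a log2 fold change of 0.56. *CDT1* had a log2 fold change of 0.62. All 3 passed without *ZK3*-KO replicate 3, with FDR values between 0.00655 and 0.0310 from edgeR.

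MCM2 to MCM7 form the ring-shaped helicase that is loaded at licensing and then unwinds the fork. Its 6 genes had log2 fold changes with a median of 0.84 (1.27 without *ZK3*-KO replicate 3 and 0.29 without replicate 2). In all 6 the order of libraries within the mutant group was replicate 2, then 1, then 3. *MCM5* (NCBI Gene 4174, chromosome 22 from 35796127 to 35821424 on the forward strand of GRCh37) was at 99.2, 63.3 and 72.9 CPM in *ZK3*-WT and 192, 270 and 56.3 CPM in *ZK3*-KO. The mean was 78.5 ± 18.6 CPM (SD, n = 3) and 173 ± 108 CPM (SD, n = 3), a log2 fold change of 1.14 with an SE of 0.50 (FDR 0.286 from edgeR). The SD of the mutant group was larger than the difference between the means. *MCM4* (NCBI Gene 4173) had the widest spread of all 55 genes, with 268, 421 and 45.7 CPM in *ZK3*-KO against 177, 106 and 106 CPM in *ZK3*-WT. Replicate 2 was 9.19 times replicate 3, and the log2 fold change was 0.91 (SE 0.67, FDR 0.513). *MCM3* was the lowest of the ring at 0.56, with 181, 147 and 161 CPM and then 247, 362 and 113 CPM. *MCM2*, *MCM6* and *MCM7* lay at 0.77, 0.97 and 0.66. In every ring gene replicates 1 and 2 of the mutant were above all parental libraries and replicate 3 below them, so the groups overlapped on both sides. Without replicate 3 all 6 passed, with log2 fold changes from 0.91 to 1.56 and FDR values from 0.00253 to 0.0129. *MCM2* shares 23.6% of its exonic bases with a noncoding gene on the opposite strand, and whether reads were counted by strand is not given in the sources used here.

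**Figure D3:**
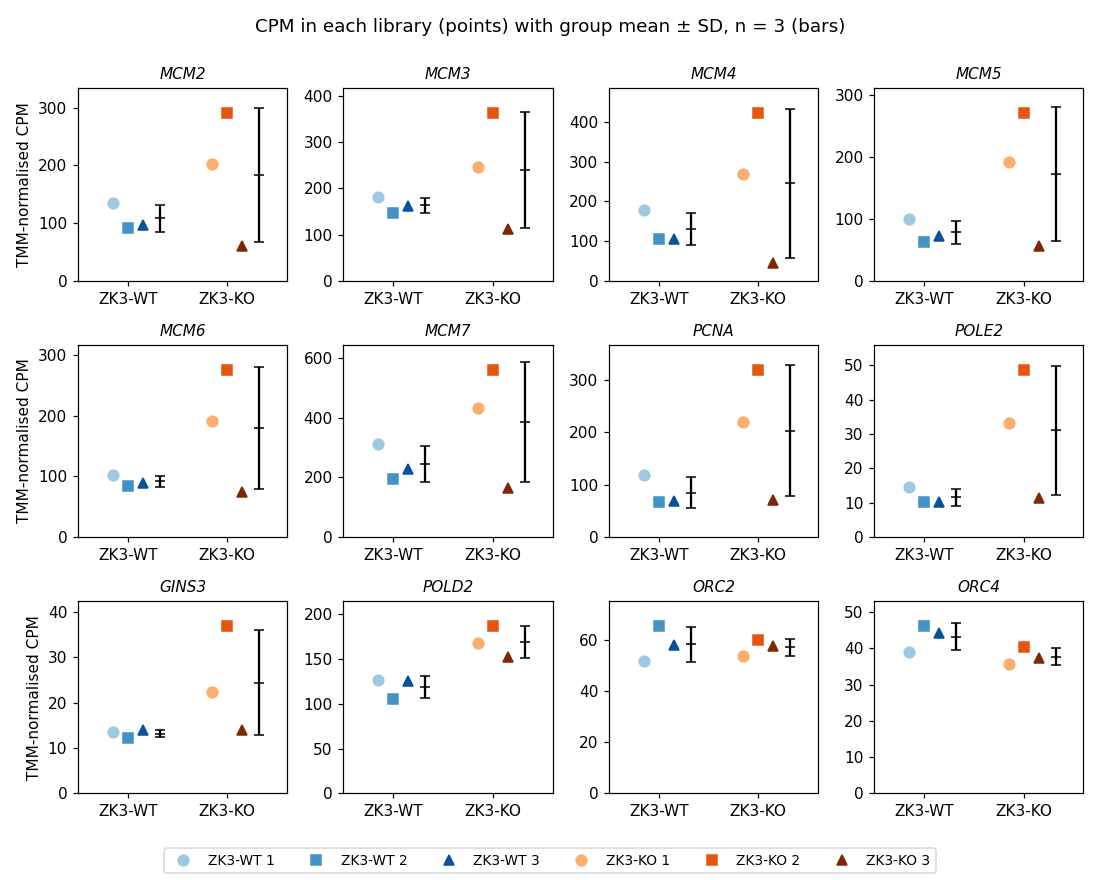
TMM-normalised CPM (vertical axes, from 0) of the 6 genes of the MCM2-7 ring, *PCNA*, *POLE2*, *GINS3*, *POLD2*, *ORC2* and *ORC4* in each library, with colour and marker for the library and bars for the group mean and SD (n = 3). The 3 *ZK3*-KO points are spread from 45.7 to 421 CPM for *MCM4* and from 53.5 to 59.8 CPM for *ORC2*, and the groups are apart for *GINS3* and *POLD2*.

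*MCM10*, which helps to switch on the helicase and is not part of the ring, had the third largest value of the set. It was at 29.6, 24.8 and 21.8 CPM in *ZK3*-WT and 60.3, 103 and 12.7 CPM in *ZK3*-KO, an 8.12-fold ratio of replicate 2 to replicate 3. It lay at a log2 fold change of 1.21 (SE 0.62, FDR 0.352 from edgeR), and 1.69 (FDR 0.00303) without replicate 3. *MCM8*, a helicase of homologous recombination, was at 45.1, 38.4 and 37.8 CPM against 44.7, 69.2 and 17.2 CPM. Its mutant libraries lay above, within and below the parental range, the log2 fold change was 0.11, and it did not pass without replicate 3 (0.50, FDR 0.110). The 2 genes had a median of 0.66, which was 1.10 without replicate 3 and 0.07 without replicate 2. *MCM8* shares 33.3% of its exonic bases with an overlapping gene on the same strand, so its reads may be uncertain.

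CDC45 and the 4 GINS proteins join MCM2-7 to make the active helicase, and the kinase CDC7 with its subunit DBF4 triggers that step. Over the 7 genes the median log2 fold change was 0.34 (0.70 without *ZK3*-KO replicate 3 and 0.00 without replicate 2). *GINS2* was at 27.0, 15.6 and 16.1 CPM in *ZK3*-WT and 42.8, 64.3 and 10.2 CPM in *ZK3*-KO (log2 fold change 1.00, SE 0.58, FDR 0.409). *GINS3* was at 13.5, 12.2 and 13.9 CPM against 22.3, 36.9 and 14 CPM. All 3 of its mutant libraries lay above the parental ones, although replicate 3 was at 14 CPM and parental replicate 3 at 13.9 CPM (log2 fold change 0.89, SE 0.33, FDR 0.216). *GINS4* was at 28.1, 19.4 and 16.7 CPM and at 25.7, 32.6 and 6.59 CPM, with a log2 fold change of 0.02 (95% interval -1.19 to 1.22). Its sign turned under several scalings and left-out libraries, and 21.0% of its exonic bases lie opposite a noncoding gene. The 4 subunits of 1 complex thus spanned 0.02 to 1.00, and *GINS1* lay at 0.68. *DBF4* was among the steadiest genes, at 49.6, 45.4 and 48.1 CPM and then 56.0, 61.6 and 37.7 CPM (log2 fold change 0.12). *CDC7* and *CDC45* had log2 fold changes of 0.34 and 0.23. Without replicate 3, *GINS1*, *GINS2*, *GINS3* and *CDC7* passed and *CDC45*, *GINS4* and *DBF4* did not.

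PCNA is the sliding clamp that holds polymerases on DNA, and the 5 RFC proteins load it. The median log2 fold change of the 6 genes was 0.51 (0.81 without *ZK3*-KO replicate 3 and 0.17 without replicate 2). *PCNA* (NCBI Gene 5111, chromosome 20 from 5095599 to 5107272 on the reverse strand of GRCh37) was at 119, 67.7 and 68.3 CPM in *ZK3*-WT and 220, 319 and 70.6 CPM in *ZK3*-KO. Replicate 3 of the mutant was level with parental replicates 2 and 3, and the means were 84.8 ± 29.2 and 203 ± 125 CPM (SD, n = 3 each). The log2 fold change was 1.26 with an SE of 0.51 (FDR 0.248 from edgeR), the second largest of the 55. The clamp loader genes were lower, from 0.24 for *RFC1* to 0.85 for *RFC5*. *RFC1*, the large subunit, was at 96.8, 88.6 and 89.8 CPM and then 117, 142 and 65.8 CPM. *RFC2*, *RFC3* and *RFC4* lay at 0.56, 0.33 and 0.45. *RFC3* had the narrowest parental range of all 55 genes, 0.04 on the log2 scale, against 1.82 in the mutant libraries. All 6 genes passed without *ZK3*-KO replicate 3, with FDR values from 0.00306 for *RFC5* to 0.0366 for *RFC1*.

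Polymerase alpha with primase makes the RNA-DNA primers that start each fragment. Its 4 genes had log2 fold changes with a median of 0.43 (0.83 without *ZK3*-KO replicate 3 and 0.01 without replicate 2). They had a median of -1.13 relative to *ZK3*-WT in mutant replicate 3, the lowest of the 13 roles. *POLA2*, the second subunit of the polymerase, was at 17.4, 12.6 and 15 CPM in *ZK3*-WT and 24.1, 32.2 and 7.41 CPM in *ZK3*-KO (log2 fold change 0.50, SE 0.47, FDR 0.615). *PRIM1*, the catalytic primase, was at 34.8, 20.8 and 19.9 CPM against 39.1, 41.5 and 9.52 CPM, with a log2 fold change of 0.26 (SE 0.51, FDR 0.830). For both genes the mutant values ran from below to above all parental ones. *POLA1* and *PRIM2* lay at 0.39 and 0.46. Of the exonic bases of *PRIM2*, 12.9% overlap a near-copy, *PRIM2BP*, and 16.9% a noncoding gene, both on the same strand. Those of *POLA2* and *PRIM1* overlap other protein-coding genes on the same strand by 16.8% and 10.9%, so reads of these genes may be uncertain. Without replicate 3, *POLA1*, *POLA2* and *PRIM2* passed and *PRIM1* did not (FDR 0.0754).

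Polymerase epsilon copies the leading strand and polymerase delta the lagging strand. The median log2 fold change of the 5 genes was 0.42 (0.62 without *ZK3*-KO replicate 3 and 0.09 without replicate 2). They held the largest value of the set. *POLE2* (NCBI Gene 5427, chromosome 14 from 50110273 to 50155140 on the reverse strand of GRCh37), the second subunit of epsilon, was at 14.5, 10.3 and 10.2 CPM in *ZK3*-WT and 33.3, 48.7 and 11.3 CPM in *ZK3*-KO. Replicate 3 lay within the parental range and the other two lay above all of it. The log2 fold change was 1.42 (SE 0.48, FDR 0.183 from edgeR), and 1.83 (FDR 0.00183) without replicate 3. *POLE2* and *WDHD1* lie on chromosome 14, whose 504 tested genes lay at a median of 0.51 on the same scale, with 53 past an FDR of 0.05 upward. The part of that shift in either gene was not tested, and the median over the members without them was 0.49. *POLD2* (NCBI Gene 5425, chromosome 7 from 44154230 to 44163957 on the reverse strand), a subunit of delta, was at 127, 106 and 126 CPM and then 168, 187 and 152 CPM. All of its mutant libraries lay above the parental ones and stayed near each other, with a log2 fold change of 0.50 and an SE of 0.15 (FDR 0.156 from edgeR). Replicate 2 was 1.23 times replicate 3, and the value was 0.58 without replicate 3 (FDR 0.0235) and 0.42 without replicate 2. *POLD3*, another delta subunit, was at 16.5, 17.4 and 16.5 CPM against 20.5, 28.6 and 11.5 CPM (log2 fold change 0.27). *POLD1* and *POLE*, the catalytic subunits, had log2 fold changes of 0.28 and 0.42. So *POLD1*, *POLD2* and *POLD3*, subunits of 1 enzyme, had ratios of replicate 2 to replicate 3 of 2.87, 1.23 and 2.49.

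RPA coats single-stranded DNA at the fork, and the median log2 fold change of its 3 genes was 0.49 (0.68 without *ZK3*-KO replicate 3 and 0.26 without replicate 2). *RPA3* was at 22.9, 13.2 and 13.3 CPM in *ZK3*-WT and 29.8, 29.1 and 12.7 CPM in *ZK3*-KO (log2 fold change 0.54, SE 0.37, FDR 0.487). *RPA1*, the large DNA-binding subunit, was at 175, 129 and 124 CPM and at 200, 240 and 105 CPM, with a log2 fold change of 0.35. *RPA3* was an exception to the usual order, since replicate 1 of the mutant was the highest library, and *RPA2* lay at 0.49. All 3 passed without *ZK3*-KO replicate 3, with FDR values from 0.0197 to 0.0426 in edgeR's test.

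Okazaki fragments are trimmed by FEN1, DNA2 and RNase H2 and joined by LIG1. Their 4 genes here had log2 fold changes with a median of 0.35 (0.77 without *ZK3*-KO replicate 3 and 0.02 without replicate 2). *FEN1*, the flap endonuclease, was at 65.1, 49.8 and 49.7 CPM in *ZK3*-WT and 110, 202 and 50.8 CPM in *ZK3*-KO. Replicate 3 was inside the parental range (log2 fold change 1.14, SE 0.44, FDR 0.233), and the value was 1.51 (FDR 0.00592) without it. *RNASEH2A*, the catalytic subunit of RNase H2, was at 31.8, 19.2 and 21.6 CPM against 33.5, 37.9 and 14.3 CPM (log2 fold change 0.24), but 53.3% of its exonic bases overlap *THSD8* on the same strand. *LIG1* and *DNA2* lay at 0.39 and 0.31. *FEN1*, *LIG1* and *DNA2* passed without replicate 3, and *RNASEH2A* did not (FDR 0.0991).

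CLSPN, TIMELESS and TIPIN travel with the fork and pass on the checkpoint signal, and WDHD1 links polymerase alpha to the helicase. The median log2 fold change of these 4 genes was 0.63 (1.00 without *ZK3*-KO replicate 3 and 0.25 without replicate 2). *CLSPN* was at 41.1, 32.6 and 28.1 CPM in *ZK3*-WT and 76.7, 129 and 15.6 CPM in *ZK3*-KO, an 8.28-fold ratio of replicate 2 to replicate 3. Its log2 fold change of 1.12 had an SE of 0.63 (FDR 0.390). *TIPIN*, the partner of TIMELESS, was at 21.1, 23.8 and 19.5 CPM and then 25.9, 34.9 and 13.1 CPM (log2 fold change 0.20), and 21.1% of its exonic bases overlap a ribosomal protein pseudogene. *TIMELESS* lay at 0.30 and *WDHD1* at 0.97. These genes fell into a wide pair and a narrow pair, and *CLSPN*, *WDHD1* and *TIMELESS* passed without replicate 3.

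Ribonucleotide reductase (RRM1 and RRM2), thymidylate synthase (TYMS) and thymidine kinase (TK1) supply the nucleotides for synthesis. The median log2 fold change of their 4 genes was 0.65 (1.05 without *ZK3*-KO replicate 3 and 0.27 without replicate 2). *TYMS* was at 143, 76.9 and 88.4 CPM in *ZK3*-WT and 210, 287 and 64.1 CPM in *ZK3*-KO (log2 fold change 0.87, SE 0.50, FDR 0.409). Of its exonic bases, 39.9% lie opposite *ENOSF1*, so some of its reads may belong to that gene. *TK1* was at 227, 101 and 158 CPM against 208, 237 and 81.8 CPM, with a log2 fold change of 0.12. It had the widest parental range of the 55, 1.17 on the log2 scale, and did not pass without replicate 3 (FDR 0.266), while *RRM1*, *RRM2* and *TYMS* passed. *RRM1* and *RRM2* lay at 0.75 and 0.54. *CHAF1A*, which deposits histones behind the fork, was at 48.3, 40.1 and 42.1 CPM and at 70.6, 109 and 28.2 CPM (log2 fold change 0.67, SE 0.42, FDR 0.444), with 1.05 (FDR 0.00980) without replicate 3 and 0.18 without replicate 2.

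Across the 55 genes, the largest differences between *ZK3*-KO replicates 2 and 3 on the log2 scale were those of *MCM4* (3.20), *CLSPN* (3.05), *MCM10* (3.02), *ORC1* (2.71) and *GINS2* (2.65). The smallest were those of *ORC2* (0.05), *ORC4* (0.11), *POLD2* (0.30), *ORC5* (0.71) and *DBF4* (0.71). The range over the mutant libraries exceeded that over the parental ones in 53 genes, or 96.4%, against 72.7% of all genes. The 20 genes with an E2F match had a median difference between these replicates of 1.99, with log2 fold changes at a median of 0.64, and the 28 with a window but no match had 1.55 and 0.39. *MCM10* and *ORC1*, with no match in the windows searched, were among the widest, and *ORC2* and *POLD2*, also with none, among the narrowest.

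**Figure D4:**
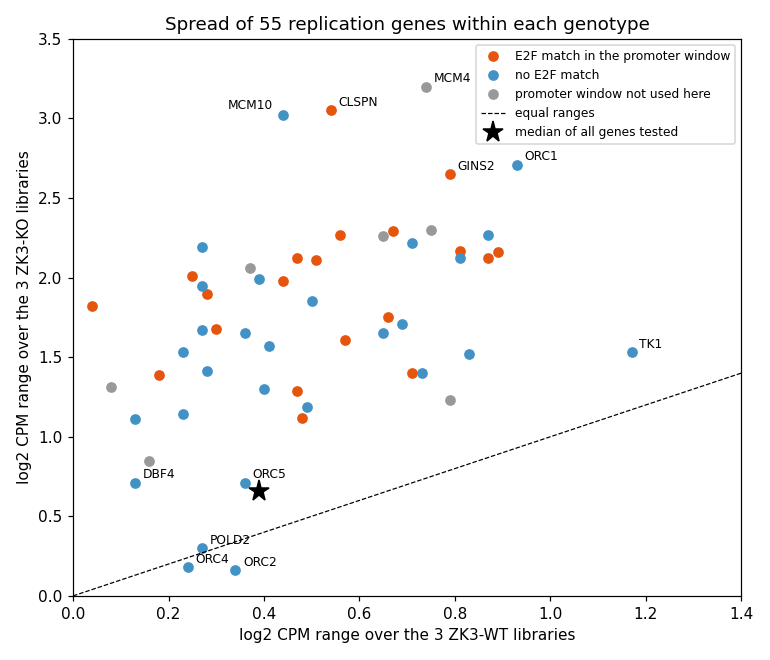
Range of log2 CPM over the 3 *ZK3*-KO libraries (vertical axis) against the range over the 3 *ZK3*-WT libraries (horizontal axis) for the 55 genes, coloured by whether the promoter window held an E2F match, with the median of all genes tested as a star and a dashed line where both ranges are equal. Of the 55 points, 53 lie above the line, and those of *ORC2* and *ORC4* below it.

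Levels between genes were compared per transcript length, in TPM. The mean level in *ZK3*-WT ran from 7.82 TPM for *DNA2* to 236 TPM for *TK1*, with a median of 32 TPM. Subunits of 1 complex were not at 1 level. In *ZK3*-WT the MCM2-7 ring ran from 47.8 TPM (*MCM5*) to 202 TPM (*MCM7*), a 4.23-fold ratio, and polymerases delta and epsilon from 9.76 TPM (*POLD3*) to 141 TPM (*POLD2*). *MCM7*, whose introns hold microRNA genes, remained the highest of the ring in *ZK3*-KO at a mean of 309 TPM. *PCNA* was at a mean of 139 TPM in *ZK3*-WT and 322 TPM in *ZK3*-KO, and *RFC3*, the lowest of the loader, at 26.6 and 30.3 TPM. The origin recognition complex ran from 13 TPM (*ORC1*) to 32 TPM (*ORC5*) in *ZK3*-WT. In *ZK3*-KO *ORC6* was the highest at 34.7 TPM and *ORC4* the lowest at 11.3 TPM. *MCM5* and *MCM6*, neighbours at the lower end of the ring, ran over the parental libraries from 39.6 to 59.8 and from 48.9 to 56.9 TPM and did not differ beyond that spread.

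**Figure D5:**
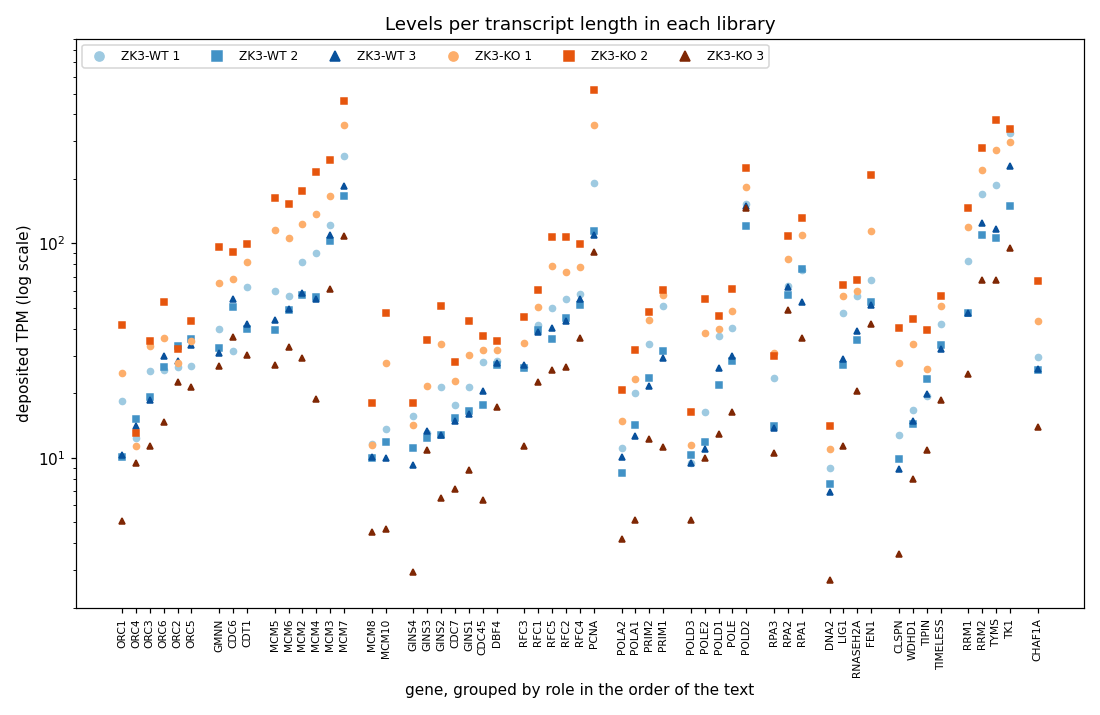
Deposited TPM (vertical axis, log scale) of the 55 genes (horizontal axis, grouped by role and sorted by the *ZK3*-WT mean within each) in each of the 6 libraries. *ZK3*-KO replicate 2 is the top point and replicate 3 the bottom point for most genes, and the parental means run from 7.82 TPM for *DNA2* to 236 TPM for *TK1*.

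The other genes of the pathway (46 genes for further subunits, origin firing, nucleotide metabolism, chromatin assembly and fork restart) had medians in the same library order and nearer to 0. Of these, 39 were higher and 7 lower in *ZK3*-KO, the median log2 fold change was 0.31, and none passed the FDR threshold with edgeR. At an unadjusted p-value under 0.05, 4 were higher (8.70%, near the 8.89% of all genes). DESeq2 called 2 higher, where it called 3.87% of all genes higher. Their medians relative to *ZK3*-WT were 0.41, 0.69 and -0.51 in the mutant libraries. The median log2 fold change was 0.56 without *ZK3*-KO replicate 3 and 0.08 without replicate 2. In the fit without replicate 3, 21 passed upward, where 7.41% of 18872 genes were called higher. In the same fit 1, *TK2* (mitochondrial thymidine kinase, -0.75 with an FDR of 0.0207 from edgeR), passed downward. Of the 18366 genes tested with all libraries, 1434 were called lower there. *UHRF1*, which guides maintenance methylation behind the fork, had the highest value, with 97.5, 91.7 and 92.0 CPM in *ZK3*-WT and 174, 275 and 64.2 CPM in *ZK3*-KO (log2 fold change 0.87, SE 0.45, FDR 0.354). *FAM111A*, a protease that acts at obstructed forks, had the lowest, with 68.3, 72.5 and 62.3 CPM against 55.4, 59.8 and 37.1 CPM (log2 fold change -0.42, SE 0.20, FDR 0.326). *FAM111A* was below the parental range in all 3 mutant libraries, which was so for 2 of the 46 genes and for 2543 of all 18366. A list of 30 G2/M genes, known to peak later in the cycle, had a median log2 fold change of 0.32, with 29 genes higher. With all libraries edgeR called 0, and 2 were higher at an unadjusted p-value under 0.05 (6.67%, against 8.89% of all genes). DESeq2 called 1 higher, where it called 3.87% of all genes higher. Without *ZK3*-KO replicate 3 the median was 0.55 and 13 passed upward in edgeR, where 7.41% of 18872 genes were called higher. With quality weights 19 passed upward, where 13.1% of all genes were called higher. The gain in calls was thus not limited to replication genes. Medians of the G2/M list in the mutant libraries were 0.52, 0.59 and -0.12. Its range over them had a median of 0.79, where the 55 replication genes had 1.71.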

How the data were processed

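Poly(A) RNA of 3 *ZK3*-WT and 3 *ZK3*-KO cultures was prepared with a stranded kit and sequenced as paired-end reads. The authors deposited 1 table with raw read counts per gene, FPKM values (per length and depth) and TPM values (per length, to a near-constant sum). The methods name Bowtie 2 in Partek Flow (Bowtie2 2.2.5 in the submitters' processing notes) and Ensembl transcripts of hg19, while the table lists NCBI Gene identifiers. The deposited FPKM values were not used, and the deposited TPM values served for levels between genes and 1 alternative. The authors modelled TPM with ANOVA, and here the deposited counts were tested instead.

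Counts were filtered with filterByExpr, normalised with TMM and tested with edgeR 4.0.16 (quasi-likelihood, genotype only) in R 4.3.3, with Benjamini-Hochberg adjustment over 18366 genes and a threshold of 0.05. Log2 CPM used a prior count of 2. The scripts were tested on simulated data. Genes were drawn independently there, with no library shifted in many genes at once, so a library such as *ZK3*-KO replicate 3 was not simulated. The alternatives were DESeq2 1.42.0, library totals, upper-quartile and relative log expression factors, all genes with at least 1 read, at least 10 reads in every library, limma 3.58.1 on log2(CPM + 1) and on log2(TPM + 1), voom with sample quality weights, the replicate block, members without chromosome 14, and each library left out. Deviations of libraries with the same replicate number from their group means had correlations of 0.294, 0.112 and 0.449 across genes, all over 0.1, and those with different numbers -0.343 to 0.209, the highest being *ZK3*-WT replicate 1 with *ZK3*-KO replicate 2. All same-number pairs passed the rule of 0.1, but *ZK3*-WT replicate 1 with *ZK3*-KO replicate 2 did too. The rule therefore does not settle whether the numbers pair the libraries, and the pairing entered only the alternative with the block. What a number marks is not given in the sources used here. Positions and exon overlaps came from a GENCODE annotation of GRCh37 (55 of 55 members matched by symbol) and promoter windows from RefSeq. Which annotation the counts were made with is not settled, and whether the overlapping genes were counted as features was not checked.

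The members, roles, motifs and lists were chosen with earlier results of these data known. CPM in every library was given for *ZKSCAN3*, for the highest and lowest log2 fold change of each role, for the 5 widest and 5 narrowest members over the *ZK3*-KO libraries and for the highest and lowest of the other replication genes.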

Additional observations from a re-analysis of the deposited data

How the results depend on the processing

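Of 55 replication genes, 0 passed the FDR threshold of 0.05 with edgeR and all libraries. The number was 2 with DESeq2, 36 with voom and sample quality weights, and between 0 and 42 when each library was left out, where 42 came without *ZK3*-KO replicate 3 and 0 came without any other. For the other 46 replication genes it was 2 with DESeq2 and 21 with quality weights. It was between 0 and 22 with each library left out, the 22 again without *ZK3*-KO replicate 3. Of these 21 and of these 22, 1 gene was lower, and every other call in either list was higher. Among all genes, DESeq2 called 3.87% higher, the weighted fit 13.1% and the fit without *ZK3*-KO replicate 3 7.41%. These fits called 795, 2563 and 1434 of the 18366 genes tested with all libraries lower. Each remaining alternative gave 0 for both lists. With the replicate block, which pairs the libraries by number, the median over the 55 genes was 0.40 and 0 were called, so the block changed no call. It turned the sign of *MCM8* (-0.09) and *GINS4* (-0.23). The median over the 55 genes stayed above 0 in all alternatives, from 0.18 without *ZK3*-KO replicate 2 to 0.82 without replicate 3, and was 0.27 in limma's fit on log2(TPM + 1), where the median of all genes was -0.08.

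Signs of single genes turned mainly without *ZK3*-KO replicate 2. Over the fits that each leave out 1 library, the lowest and highest log2 fold changes were -0.11 and 0.06 for *ORC2*, -0.03 and 0.32 for *ORC5*, -0.39 and 0.50 for *MCM8*, -0.13 and 0.67 for *CDC45*, -0.40 and 0.45 for *GINS4*, -0.03 and 0.31 for *DBF4*, -0.0028 and 0.50 for *RFC1*, -0.07 and 0.70 for *RFC3*, -0.06 and 0.82 for *POLA1*, -0.05 and 0.69 for *PRIM1*, -0.01 and 0.62 for *POLD1*, -0.07 and 0.55 for *POLD3*, -0.02 and 0.57 for *RNASEH2A*, -0.09 and 0.72 for *DNA2*, -0.14 and 0.51 for *TIPIN* and -0.16 and 0.47 for *TK1*. On log2(TPM + 1), values turned for *MCM8* (-0.07), *CDC45* (-0.11), *GINS4* (-0.29), *DBF4* (-0.03), *RFC3* (-0.02), *PRIM1* (-0.07), *DNA2* (-0.0042) and *TK1* (-0.07). On log2(CPM + 1) they turned for *MCM8* (-0.09) and *GINS4* (-0.21), and *GINS4* was also at -0.04 with library totals and -0.03 with upper-quartile factors. The cause of these differences was not tested. The spread among 3 libraries limits what the test can show, and the 95% interval of *GINS2*, at 1.00, ran from -0.36 to 2.36.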

Other observations

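*POLD4*, the small accessory subunit of polymerase delta, ran in the opposite order to the other delta subunits over the *ZK3*-KO libraries. It was singled out after its values were seen. It was at 17.4, 15.4 and 24.0 CPM in *ZK3*-WT and 17.7, 7.37 and 54.4 CPM in *ZK3*-KO (log2 fold change 0.48, SE 0.63, FDR 0.734 from edgeR). *TOP1*, the topoisomerase that relaxes DNA ahead of the fork, was at 319, 354 and 435 CPM and then 582, 581 and 750 CPM. All 3 mutant libraries lay above the parental ones, at a log2 fold change of 0.79 (SE 0.19, FDR 0.0916 from edgeR). *POLE4*, a histone-fold subunit of polymerase epsilon, was at 4.5, 3.38 and 4.15 CPM against 5.34, 6.58 and 9.26 CPM. *RNASEH2B*, a subunit of RNase H2, was at 19.6, 18.0 and 21.3 CPM against 22.5, 24.9 and 23.8 CPM. *TOP1*, *POLE4* and *RNASEH2B* were the 3 of 46 other replication genes (6.52%, against 12.7% of all genes) that lay higher in all mutant libraries without overlap, and replicate 3 was not the lowest mutant library for any of them.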
